A study of Mus musculus with 10 samples.

Results

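Small nucleolar RNA host genes are transcripts that carry small nucleolar RNAs (snoRNAs) in their introns. Listed by symbol were 10 of them (Snhg1, Snhg3, Snhg6, Snhg8, Snhg11, Snhg12, Snhg15, Snhg18, Snhg20 and Gas5) out of 33347 genes counted. The host genes were listed as a family, with earlier results of these data known. Snhg18 was chosen by its measured counts, which differ between the groups compared here, so its values are a description with no test. The RNA came from 10 lung samples from wild-type (WT) mice, all given bleomycin, a DNA-damaging drug used to induce lung fibrosis. The 5 ALDHbr samples are lungs of mice injected with bone marrow cells of high activity of aldehyde dehydrogenase (ALDH), an enzyme used to sort progenitor cells, and the 5 ALDHdim samples are lungs of mice injected with marrow cells of low ALDH activity. The comparison asks how the recipient lungs differed between these transfers. No lung without bleomycin or without transferred cells was analysed here. The strain, age and sex of the mice, the cell dose and the times are details not given in the sources used here. Nor is it said that each sample came from its own animal, so p-values measure only the spread between these samples, which may be technical.

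In a host gene the exons are joined into a spliced RNA while each snoRNA is cut out of the excised intron. Box C/D snoRNAs guide methylation of ribose in ribosomal RNA, and box H/ACA snoRNAs guide conversion of uridine to pseudouridine. The spliced RNAs of several host genes, among them Gas5 and Snhg1, are translated poorly or into very short peptides and are degraded by nonsense-mediated decay (NMD). Many host genes start with a pyrimidine tract, as do the messenger RNAs of ribosomal proteins, and Gas5 was named for its accumulation in growth-arrested cells.

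Every one of the 10 host genes held an annotated snoRNA gene on its own strand in GENCODE mouse release M21 (build GRCm38). There were 32 such genes at 30 separate positions, and 32 of 32 lay wholly within an annotated intron. Gas5, on chromosome 1 from 161034422 to 161038539 (plus strand), held 10 of them, at 9 positions, in a span of 4118 bp with up to 12 exons in a transcript. Snhg1, on chromosome 19 from 8723475 to 8726443 (plus), held 8, and Snhg12, on chromosome 4 from 132308623 to 132311024 (plus), held 5 at 4 positions. Snhg3, on chromosome 4 from 132348014 to 132353686 (minus), held 2, Snora73a and Snora73b. Snhg11, on chromosome 2 from 158375638 to 158386145 (plus), also held 2 and was the longest host at 10508 bp. The other host genes held 1 each. They were Snhg6 (chromosome 1, 9941959 to 9944118, minus), Snhg8 (chromosome 3, 123507552 to 123508404, minus) and Snhg15 (chromosome 11, 6525591 to 6528760, minus). The others were Snhg18 (chromosome 15, 32240565 to 32244662, minus) and Snhg20 (chromosome 11, 117076008 to 117078955, plus). Snhg18 had a single annotated transcript of 2 exons and 1486 nt, with Snord123 in its intron.

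The sequences below show the products that these hosts carry, chosen as the snoRNA of Snhg18, that of Snhg6, 1 of the C/D snoRNAs of Gas5, and for contrast the H/ACA snoRNA of Snhg8. They are from the GENCODE transcripts on GRCm38, 5′ to 3′ in the sense of the snoRNA. Capitals mark TGATGA (the C box) and CTGA (the D box), or ACA (the H/ACA box at the 3′ end).
Snord123 in Snhg18, chr15:32241853-32241923, minus strand: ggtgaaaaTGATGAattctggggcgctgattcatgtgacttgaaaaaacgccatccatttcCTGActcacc
Snord87 in Snhg6, chr1:9942463-9942549, minus strand: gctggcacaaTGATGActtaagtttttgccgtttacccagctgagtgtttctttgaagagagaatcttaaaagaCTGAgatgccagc
Snord47 in Gas5, chr1:161038082-161038158, plus strand: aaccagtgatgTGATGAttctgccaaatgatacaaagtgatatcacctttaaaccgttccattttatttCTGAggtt
Snora24 in Snhg8, chr3:123507937-123508066, minus strand: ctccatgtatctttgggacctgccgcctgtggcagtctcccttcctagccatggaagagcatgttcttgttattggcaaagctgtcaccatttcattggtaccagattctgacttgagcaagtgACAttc
TGATGA starting within the first 20 bases together with CTGA starting within the last 20 was found in 17 of the 32 snoRNA genes, 53.1%, against 20.2% of all 1558 annotated snoRNA and small Cajal body RNA genes. Of these 17, 8 lay in Gas5 and 6 in Snhg1. ACA followed by 3 bases at the 3′ end was found in 9 of 32, 28.1%, against 19.3% of all. These are matches of letters on the transcribed strand, and entries at the same position were counted separately. The entry Mir5117 in Gas5 matched both patterns and is in both counts.

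The snoRNAs themselves were hardly seen, in libraries primed on poly(A) tails, which mature snoRNAs lack. Snord123 had 0, 0, 1, 0 and 0 counts in ALDHbr libraries 1 to 5 and 0, 0, 0, 2 and 1 counts in ALDHdim libraries 1 to 5. Snord87 had 0, 0, 2, 1 and 1 counts in ALDHbr and 1, 0, 0, 2 and 0 counts in ALDHdim libraries. These 2 were the hosted snoRNAs with a row in the table. Together they had 11 counts, against 4232 counts of the 10 host genes. The values below are therefore those of the spliced or polyadenylated host RNA and say nothing of the amount of snoRNA.

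The annotated starts in the RefSeq table are shown for the 6 host genes past the filter on low counts that have one, since their starts differ in whether they open on a run of pyrimidines. Each sequence is from the RefSeq table on GRCm38.p6, 5′ to 3′, 20 bases before and 30 bases from the annotated start. Capitals mark the unbroken run of C or T from the first transcribed base.
Gas5, first start, chr1:161034581-161034630, plus strand: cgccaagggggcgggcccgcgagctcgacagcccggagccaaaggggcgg
Gas5, second start, chr1:161035146-161035195, plus strand: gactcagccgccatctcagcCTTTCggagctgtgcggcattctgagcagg
Snhg18, chr15:32244633-32244682, minus strand: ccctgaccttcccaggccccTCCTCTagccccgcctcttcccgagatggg
Snhg11, chr2:158375693-158375742, plus strand: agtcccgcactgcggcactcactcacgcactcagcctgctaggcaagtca
Snhg1, chr19:8723467-8723516, plus strand: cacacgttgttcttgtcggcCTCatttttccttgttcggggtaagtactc
Snhg8, chr3:123508307-123508356, minus strand: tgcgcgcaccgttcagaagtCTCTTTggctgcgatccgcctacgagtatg
Snhg12, chr4:132308658-132308707, plus strand: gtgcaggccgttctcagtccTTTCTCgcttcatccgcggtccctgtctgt
The table held 10 starts for 9 of the host genes, 2 of them for Gas5. A run of at least 5 bases that are C or T, read on the transcribed strand from the first base, was found at 4 of these 10 starts, against 4.44% of all 32851 starts. These were the second Gas5 start, Snhg8, Snhg12 and Snhg18, while the first Gas5 start and Snhg11 open on a purine and Snhg1 on a run of 3. With C required as the first base it was 2 of 10, the second Gas5 start and Snhg8, against 2.51% of all. With such a C-led run anywhere from 15 bases before to 15 bases after the start it was 5 of 10, against 40.9% of all. The outcome thus depended on the annotated base, and a match is a description.

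The libraries were first checked as a whole. All 8 lung markers listed had counts, with Sftpc of alveolar type II cells at 21873 ± 6653 CPM and Scgb1a1 of club cells at 23490 ± 9894 CPM (SD over 10 libraries). Total counts were 588063 to 1522283 in ALDHbr and 1181037 to 2002947 in ALDHdim libraries. At an equal depth of 588063 counts, ALDHbr 3 and ALDHbr 5 detected 22836 and 21602 genes, against at most 18123 in any other library. Cardiac muscle markers (6 of 6 with counts) summed to 138 to 315 CPM in ALDHbr libraries, against 224 to 336 CPM in ALDHdim ones. Neutrophil markers (6 of 6) summed to 110 to 260.3 CPM in ALDHbr libraries, against 147 to 994 CPM in ALDHdim ones. Erythroid markers (4 of 4) summed to 4569 to 14230 CPM in ALDHbr libraries, against 1616 to 14048 CPM in ALDHdim ones. Thymus markers (3 of 4 listed) summed to 9.78 to 24.6 CPM in ALDHbr libraries, against 5.95 to 15.2 CPM in ALDHdim ones.

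CPM are counts scaled to a common library size with edgeR's trimmed mean (TMM) factors, and levels were not divided by transcript length, since reads of this 3′ method start near the poly(A) site. Gas5 was the most abundant at 127 ± 33.8 CPM (SD over all 10 libraries), and it took 41.7% of the counts of the 10 genes. It was followed by Snhg18 at 52.4 ± 14.1 CPM, Snhg8 at 43.3 ± 9.84 CPM, Snhg1 at 29.7 ± 6.19 CPM, Snhg6 at 22.2 ± 8.69 CPM, Snhg12 at 20.7 ± 5.14 CPM and Snhg11 at 16.3 ± 10.1 CPM. Snhg20 (7.62 ± 2.39 CPM) and Snhg15 (6.64 ± 2.08 CPM) had 98 and 83 counts in all, and Snhg3 had 1. Of the neighbours in this order, Gas5 and Snhg18, Snhg8 and Snhg1, and Snhg15 and Snhg3 lay further apart than the larger of their SDs, and the others did not. The filter on low counts left 7 of the 10 host genes, all but Snhg3, Snhg15 and Snhg20.

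**Figure D1:**
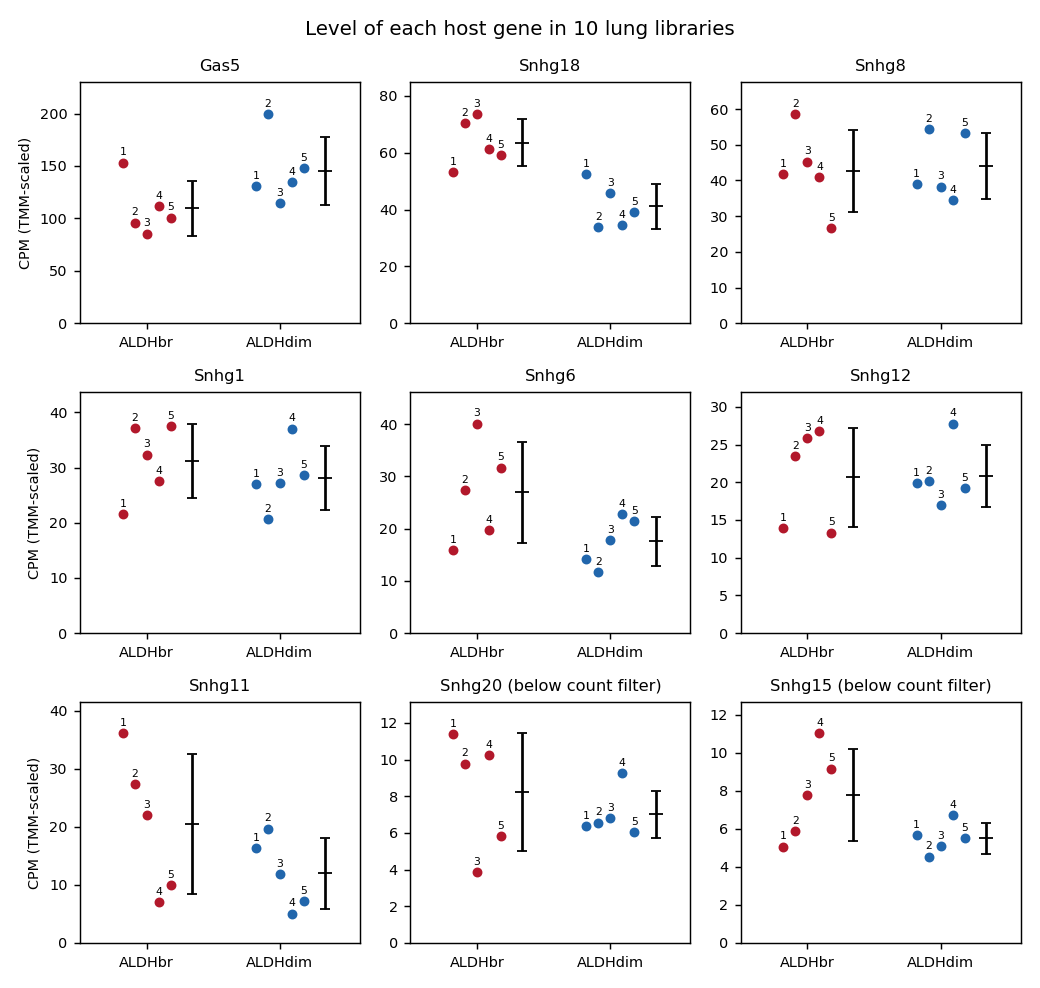
CPM of 9 host genes in the 5 ALDHbr (left, red) and 5 ALDHdim (right, blue) libraries. Each point is a library with its replicate number, and the black bar is mean ± SD. The Snhg18 values of the groups do not overlap, and those of every other gene shown do.

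No host gene that was tested, Snhg18 being described only, was called different between the groups. Of these 6, 0 were past an adjusted p of 0.05 with edgeR's quasi-likelihood test and Benjamini-Hochberg adjustment over 10844 genes, where 0% of all genes were called. At an unadjusted p under 0.05 were 2 of the 6, against 3.71% of all genes. They were Snhg6, with a higher mean (2.13% of all genes in that direction), and Gas5, with a lower mean (1.58%). As the family was listed with earlier results of these data known, nothing is read from 2 of the 6 against the share of all genes. DESeq2 and limma-voom called 0 of the 6 as well. Of the 6, 3 had higher estimates in ALDHbr recipients (51.9% of all genes) and 3 had lower ones (48.1%), with a median log2 fold change of 0.04, against 0.01 over all genes tested. An adjusted p that misses the threshold does not show that levels were equal. The smallest adjusted p of all genes was 0.999 by edgeR, so this value does not set 1 gene apart from another. The 95% intervals are not adjusted for the number of genes, and an interval can leave out no change while the adjusted p is 0.999. That of a log2 fold change had a median half-width of 0.43 over all genes. Fewer cells of a type and less RNA per cell cannot be told apart in such whole-tissue samples.

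Snhg18, the host of Snord123, was at 53.2, 70.4, 73.7, 61.4 and 59.1 CPM in ALDHbr libraries 1 to 5, and at 52.5, 33.8, 45.9, 34.5 and 39.0 CPM in ALDHdim libraries 1 to 5. All 5 ALDHbr libraries were above all 5 ALDHdim libraries, by a narrow margin between ALDHbr 1 and ALDHdim 1. The means were 63.6 ± 8.40 CPM in lungs of ALDHbr recipients, against 41.2 ± 7.98 CPM for ALDHdim (± SD, n = 5 per group). The log2 fold change was 0.61, a fold of 1.53. Of all genes tested, 0.249% did not overlap in this direction, and 98.6% had a fold change at or below that of Snhg18. Since Snhg18 was picked for this difference, nothing is read from either share, and no error or interval is given for its fold change. Counts behind these values were 36 to 84 per library, which alone gives a coefficient of variation (CV) near 13.0%, against an observed 13.2% within the ALDHbr and 19.4% within the ALDHdim group. With the total count of each library as a covariate, an alternative chosen after seeing the data, the log2 fold change was 0.45. Omitting any 1 library gave 0.54 to 0.71. As groups that do not overlap keep their direction when 1 library is omitted, this range is a description only.

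Gas5, the growth arrest transcript with 10 annotated snoRNA genes at 9 positions, had a lower mean in ALDHbr recipients. It was at 153, 95.8, 85.4, 112 and 101 CPM in ALDHbr libraries 1 to 5, and at 131, 199.8, 115, 135 and 148 CPM in ALDHdim libraries 1 to 5. In ALDHbr, 4 of 5 libraries were below every ALDHdim library, and ALDHbr 1 was above all but ALDHdim 2. The means were 109 ± 26.3 CPM in lungs of ALDHbr recipients, against 146 ± 32.5 CPM for ALDHdim (± SD, n = 5 per group). The log2 fold change was −0.40 (SE 0.17, adjusted p = 0.999 by edgeR), a fold of 0.76 with a 95% interval of 0.59 to 0.98. Omitting any 1 library gave −0.56 (without ALDHbr 1) to −0.25 (without ALDHdim 2), and omitting both ALDHbr 3 and ALDHbr 5 gave −0.26. It was −0.13 with the total count as a covariate. The neutrophil markers summed to 994 CPM in ALDHdim 2, the library of highest Gas5, and their part in that value was not tested.

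Snhg6, the host of Snord87, had a higher mean in ALDHbr recipients. It was at 15.8, 27.4, 40.1, 19.7 and 31.7 CPM in ALDHbr and at 14.2, 11.6, 17.9, 22.7 and 21.4 CPM in ALDHdim libraries. The ALDHbr libraries 2, 3 and 5 were above every ALDHdim library, and the groups overlapped. The means were 26.9 ± 9.64 CPM in lungs of ALDHbr recipients, against 17.6 ± 4.71 CPM for ALDHdim (± SD, n = 5 per group). The log2 fold change was 0.58 (SE 0.27, adjusted p = 0.999 by edgeR). The fold of 1.49 had a 95% interval of 1.01 to 2.21. The 2 highest values were in ALDHbr 3 and ALDHbr 5, in which the most genes were detected. Omitting both gave a log2 fold change of 0.18, and with the total count as a covariate it was 0.29. Omitting any 1 library gave 0.40 (without ALDHbr 3) to 0.75 (without ALDHbr 1). Snhg6 shares 127 bp of exon with Mcmdc2 on the opposite strand, which had 45 counts in all, against 263 of Snhg6. The use of strand in counting being a detail not given in the sources used here, reads of that stretch cannot be told apart.

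Snhg11, known for its expression in neurons of the brain and listed as protein-coding in the deposited table, varied the most among the 7 host genes past the filter. It was at 36.1, 27.4, 22.0, 7.08 and 10.0 CPM in ALDHbr and at 16.3, 19.7, 11.9, 5.05 and 7.14 CPM in ALDHdim libraries. The highest and lowest of the 10 libraries differed by 7.15-fold, and in both groups libraries 4 and 5 were the lowest. The CV over all libraries was 61.9%, against 27.0% that its counts of 6 to 57 per library give alone. Its mean was 20.5 ± 12.1 CPM in lungs of ALDHbr recipients, against 12.0 ± 6.11 CPM for ALDHdim (± SD, n = 5 per group). The log2 fold change was 0.71 (SE 0.45, adjusted p = 0.999 by edgeR), a fold with a 95% interval of 0.84 to 3.21. It was 0.23 with limma-voom. Omitting any 1 library gave 0.26 (without ALDHbr 1) to 0.999 (without ALDHdim 2). The 7 neuron markers listed (Snap25, Syt1, Tubb3, Uchl1, Stmn2, Map2 and Rbfox3) all had counts. They summed to 144 to 196 CPM in ALDHbr and 103 to 189.7 CPM in ALDHdim libraries, lowest in ALDHdim 4 and ALDHdim 5, and their part in the Snhg11 values was not tested.

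Snhg1, Snhg8 and Snhg12 had the estimates nearest to 0. Snhg1, the host of Snord22, was at 21.5, 37.2, 32.3, 27.5 and 37.5 CPM in ALDHbr and at 27.0, 20.7, 27.2, 37.0 and 28.6 CPM in ALDHdim libraries. The groups overlapped, with a log2 fold change of 0.13 (SE 0.20) and a fold between 0.81 and 1.47 in the 95% interval. Snhg8, the host of Snora24, was at 41.8, 58.7, 45.3, 40.9 and 26.7 CPM in ALDHbr and at 39.0, 54.5, 38.3, 34.5 and 53.3 CPM in ALDHdim libraries. ALDHbr 2 was the highest and ALDHbr 5 the lowest of all 10. Its log2 fold change was −0.10 (SE 0.20), with a 95% interval of 0.70 to 1.25 as a fold. Snhg12, which carries snoRNAs of both classes, was at 13.9, 23.5, 25.9, 26.7 and 13.3 CPM in ALDHbr and at 19.9, 20.2, 17.0, 27.8 and 19.2 CPM in ALDHdim libraries. The ALDHbr libraries 1 and 5 were below every ALDHdim library. Its log2 fold change was −0.05 (SE 0.24), with a 95% interval of 0.68 to 1.37 as a fold, and the adjusted p was 0.999 for each of the 3 genes by edgeR. Without both ALDHbr 3 and ALDHbr 5 the estimate changed sign for each of them, to −0.031 for Snhg1, 0.0325 for Snhg8 and 0.0014 for Snhg12.

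**Figure D2:**
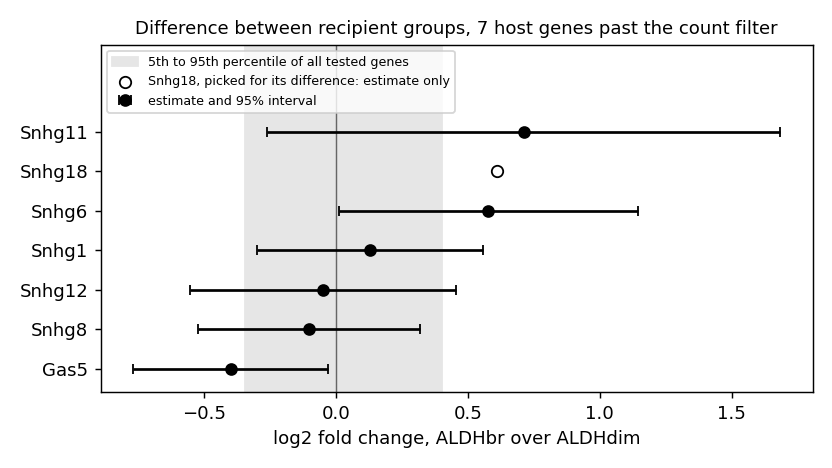
Log2 fold change (ALDHbr over ALDHdim) of the 7 host genes past the filter on low counts, with 95% intervals from the fit over all genes for the 6 that were tested. The grey band spans the 5th to 95th percentile of all 10844 tested genes, −0.34 to 0.40. Snhg18 (open circle) was picked for its difference and has no interval. Gas5 lies at −0.40 and Snhg11 at 0.71.

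The 3 host genes below the filter were not tested. Snhg15, the host of Snora9, was at 5.07, 5.87, 7.76, 11.01 and 9.16 CPM in ALDHbr and at 5.68, 4.54, 5.10, 6.74 and 5.49 CPM in ALDHdim libraries. The ALDHbr libraries 3, 4 and 5 were above every ALDHdim library, on 3 to 14 counts a library. Snhg20 was at 11.4, 9.78, 3.88, 10.2 and 5.83 CPM in ALDHbr and at 6.39, 6.56, 6.80, 9.26 and 6.04 CPM in ALDHdim libraries. The ALDHbr values lay on both sides of the ALDHdim values. Its counting CV of 36.1% was above its observed CV of 31.4%, and for Snhg15 the values were 37.6% and 31.3%, so neither spread was larger than counting gives. Snhg3, the host of Snora73a and Snora73b, had 1 count in ALDHbr 3 and 0 in the other 9 libraries. A count of 0 allows up to 3 counts, or 1.498 to 5.10 CPM of a library's total, for counting error only. Snhg3 shares 135 bp of exon with Rcc1 on the same strand, and reads that fall in both genes cannot be assigned. It also shares 705 bp of exon with Gm17300 on the opposite strand, which had 2 counts in all. The longest annotated Snhg3 transcript is 581 nt. As the use of strand in counting is not given, Snhg3 reads may have been left out, and its 1 count does not show near-absence.

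Pairs of host genes ran in both directions across libraries. Over the 21 pairs of the 7 host genes past the filter, Pearson's r of log2 CPM over the 10 libraries ranged from −0.85 to 0.80 with a median of −0.0075, and 10 pairs were positive and 11 negative. These correlations are descriptions, since the pairs share libraries, scaling and depth. Counting error also pulls r towards 0, so a median near 0 does not show that the genes vary apart. Counts alone give a CV of 17.2% for Snhg1, 21.0% for Snhg12 and 14.6% for Snhg8, against observed 20.9%, 24.8% and 22.7%. For Gas5 and Snhg6 the counting CVs were 8.96% and 20.3%, against observed 26.5% and 39.1%. Snhg1 and Snhg6 were the most alike (r = 0.80, Spearman's rho = 0.92, and r = 0.66 without ALDHdim 2 and ALDHbr 5, the libraries farthest from the Snhg1 median). Gas5 ran opposite to Snhg6 (r = −0.85, rho = −0.77, and r = −0.63 without ALDHbr 3 and ALDHdim 2). It also ran opposite to Snhg18 (r = −0.83, rho = −0.84, and r = −0.80 without ALDHdim 2 and ALDHdim 4). Within groups, after the group means were taken out, these values were 0.83 for Snhg1 with Snhg6, −0.77 for Gas5 with Snhg6 and −0.75 for Gas5 with Snhg18. ALDHdim 2 had the highest Gas5 and the lowest Snhg1, Snhg6, Snhg15 and Snhg18 of all 10 libraries. ALDHbr 3 had the lowest Gas5 and the highest Snhg6 and Snhg18.

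**Figure D3:**
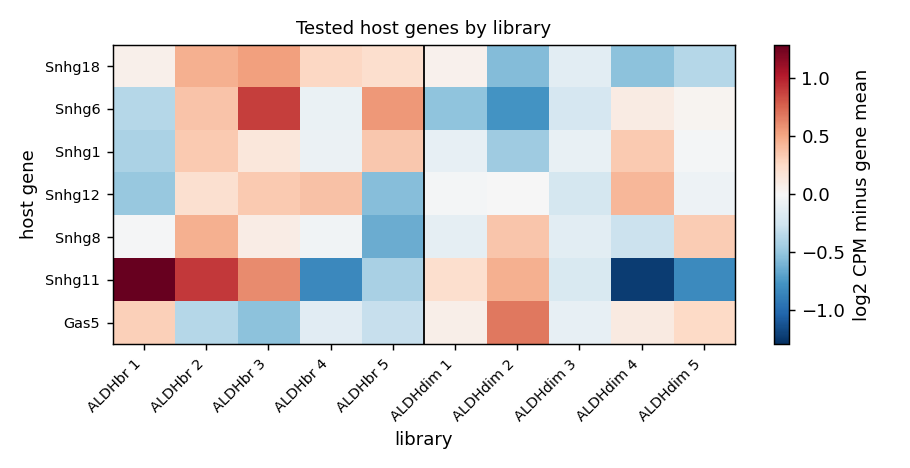
Log2 CPM of the 7 host genes past the filter minus each gene's mean, in the 5 ALDHbr (left of the line) and 5 ALDHdim libraries. Gas5 is lowest in ALDHbr 3, where Snhg6 and Snhg18 are highest, and the reverse holds in ALDHdim 2.

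The summed level of the 10 host genes, Snhg18 included, differed between the groups by less than its SD. The sum was 331 ± 26.0 CPM in lungs of ALDHbr recipients, against 322 ± 31.8 CPM for ALDHdim (± SD, n = 5 per group). Gas5 made up 43.5, 26.9, 25.3, 35.3 and 34.3% of it in ALDHbr libraries 1 to 5, and 41.9, 53.8, 40.3, 43.1 and 45.1% in ALDHdim libraries 1 to 5. All ALDHbr libraries but the first were below all ALDHdim libraries. With Snhg18 left out of the sum, Gas5 made up 51.3, 33.6, 32.4, 43.8 and 42.9% in ALDHbr libraries, against 50.4, 59.2, 48.0, 48.5 and 51.1% in ALDHdim ones, and again all ALDHbr libraries but the first were below all ALDHdim libraries. With Snhg18 alone left out, the sum had a median of 263.9 CPM in ALDHbr libraries, against 277.9 CPM in ALDHdim ones, and the groups overlapped. With all 10 genes the medians were 337.6 and 312.4 CPM, so the direction turned when the picked gene was left out. Gas5, of lower mean in ALDHbr recipients, was then left out as well. The sum without Gas5 and without Snhg18 was 134 to 189.7 CPM in ALDHbr and 124 to 143 CPM in ALDHdim libraries, which overlap. Here all ALDHbr libraries but ALDHbr 5 were above all ALDHdim libraries, ALDHbr 4 only just (143.185 CPM, against 143.143 CPM in ALDHdim 4).

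Gas5 moved with the depth of the library. Its log2 CPM had r = 0.83 and rho = 0.82 with the log2 total count over the 10 libraries, r = 0.75 within groups and r = 0.85 without ALDHbr 2 and ALDHdim 2, the shallowest and the deepest. Snhg18, Snhg1 and Snhg6 had r of −0.72, −0.69 and −0.68 with the same measure, and −0.54, −0.46 and −0.65 without those 2 libraries. Over all 10844 genes the 5th and 95th percentiles of this r were −0.70 and 0.68. With the number of genes detected at equal depth Gas5 had r = −0.71, and −0.57 without ALDHbr 3 and ALDHbr 5. Snhg18, Snhg1 and Snhg6 had r of 0.62, 0.43 and 0.75 with that number, and 0.54, 0.12 and 0.027 without those 2 libraries. The part of depth or of genes detected in the Gas5 and Snhg6 differences, beyond the fits given above, was not tested.

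**Figure D4:**
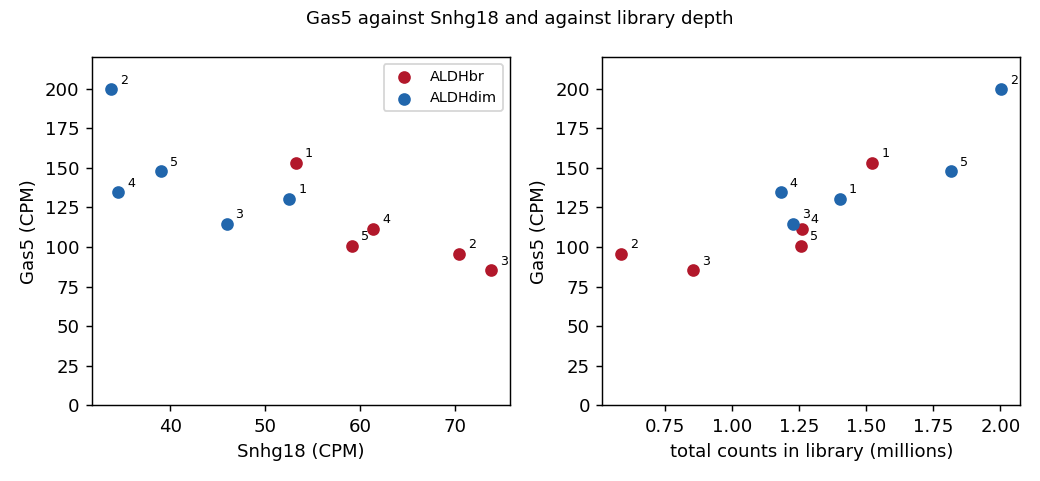
Gas5 (CPM) against Snhg18 (CPM, left) and against the total counts of each library (right) in ALDHbr (red) and ALDHdim (blue) libraries, labelled by replicate number. Gas5 is lower where Snhg18 is higher (r = −0.83 on log2 values, −0.75 within groups). It is higher in deeper libraries (r = 0.83 on log2 values, 0.75 within groups). Snhg18 was picked for its group difference, which is part of the first r over all libraries.

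Genes outside the family whose pattern was most like that of Snhg18 were Dtwd2 (r = 0.93), Cebpzos (0.92), Rps6ka4 (0.92), Dad1 (0.91) and Pde6d (0.90), by Pearson's r of log2 CPM over 10 libraries among 10389 named genes. Taken within groups, r was 0.68 to 0.86 for these 5 genes, and rho over all libraries was 0.87 to 0.92. Dtwd2, an enzyme that modifies transfer RNA, was at 8.23 to 22.0 CPM in ALDHbr libraries, against 4.21 to 9.36 CPM in ALDHdim ones. Dad1, a subunit of the oligosaccharyltransferase, was at 168 to 186 CPM in ALDHbr libraries, against 144 to 166 CPM in ALDHdim ones. For the mean of the 6 tested host genes the most alike were Mtarc2 (r = 0.94), Tmem246 (0.92), Cisd3 (0.92), Cry1 (0.91) and Ciao1 (0.90). They are the highest of many values, and nothing is read from them.

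Further non-coding snoRNA hosts did not pass the threshold either. Of 14 listed, 12 had a row and 6 were tested, 5 with higher and 1 with lower estimates, a median log2 fold change of 0.14 and 0 past the threshold. Of all genes tested, 51.9% had higher estimates, and their median was 0.01. Snhg14, the imprinted host of the Prader-Willi region, was at 10.8, 13.7, 67.3, 9.44 and 30.8 CPM in ALDHbr and at 16.3, 13.6, 19.6, 18.5 and 5.49 CPM in ALDHdim libraries. Its high values were in ALDHbr 3 and ALDHbr 5, and its log2 fold change was 0.82 (SE 0.55, adjusted p = 0.999 by edgeR). The transcript 2410006H16Rik differed by 0.34 (SE 0.22), Zfas1, antisense to Znfx1, by 0.09 (SE 0.19) and Snhg5 by −0.16 (SE 0.19). Snhg17, which neighbours Snhg11 on chromosome 2, had 74 counts in all and was not tested. Among all annotated non-coding genes with a snoRNA in an intron, 15 were tested, 10 with higher and 5 with lower estimates and a median of 0.09. They include host genes described above. Snhg18, picked for its difference, is 1 of the 10 with higher estimates.

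Protein-coding hosts and the proteins that work with snoRNAs were not called in any list. Of 26 listed protein-coding hosts, all tested and most of them genes of ribosomal proteins or translation factors, 20 had higher and 6 had lower estimates, a median of 0.14 and 0 past the threshold. Over all genes tested 51.9% had higher estimates, with a median of 0.01. Genes of a list share the same libraries and are not separate observations, so no shift of the list is read from these counts. Rpl17, a protein of the large ribosomal subunit, was at 1194 ± 294 CPM in lungs of ALDHbr recipients, against 932 ± 99.0 CPM for ALDHdim (± SD, n = 5 per group). The log2 fold change was 0.36 (SE 0.18). Hspa9, a mitochondrial chaperone, differed by −0.24 (SE 0.13). The 209 tested of all annotated protein-coding hosts had a median of 0.06, 128 higher and 81 lower. The 8 core proteins of C/D and H/ACA particles had a median of 0.05, 5 higher and 3 lower. Fibrillarin (Fbl), the methyltransferase of C/D particles, differed by 0.21 (SE 0.18) and Nop58, its partner, by −0.22 (SE 0.17). Of the assembly factors 10 were tested, 5 higher and 5 lower, with a median of −0.02. Pih1d1, of the assembly chaperone complex, differed by 0.32 (SE 0.16) and Tgs1, which trimethylates RNA caps, by −0.26 (SE 0.16).

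NMD factors, which degrade the spliced RNA of several hosts, had a median log2 fold change of 0.04 over 16 tested genes, 10 higher and 6 lower. Upf2 and Upf3b, which bridge the exon junction complex to the helicase Upf1, differed by −0.26 (SE 0.18) and −0.26 (SE 0.17). Genes of ribosomal RNA synthesis and processing had a median of 0.03 over 24 tested, 13 higher and 11 lower. Taf1b, of the promoter selectivity factor of RNA polymerase I, was at 23.2 ± 6.04 CPM in lungs of ALDHbr recipients, against 14.5 ± 3.35 CPM for ALDHdim (± SD, n = 5 per group). The log2 fold change was 0.60 (SE 0.23). Tcof1, the treacle protein of the nucleolus, was at 16.4 ± 4.32 CPM in lungs of ALDHbr recipients, against 23.2 ± 3.48 CPM for ALDHdim, a difference of −0.45 (SE 0.21) in log2. In each of these lists 0 genes passed, and the adjusted p of every gene named was 0.999 by edgeR.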

How the data were processed

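Poly(A) RNA was counted from its 3′ end by BRB-seq: per the labels' protocols, each lung's RNA was reverse transcribed with a dT primer holding a barcode (9 nt) and a molecular identifier (UMI, 10 nt), samples were pooled before amplification, and the insert read was 81 nt. In all, 16 samples shared 1 pool by the deposited barcode list; 6 of them are cells, not analysed here. The authors deposited raw counts per gene, 33347 genes in 10 libraries. As tools, the submitters' processing notes name HISAT2 2.2.1, featureCounts 2.0.1, Trim Galore 0.6.7, UMI-tools and DESeq2, and as builds GRCm38 and GRCh38, without roles. UMI collapse and strand use are points not given in the sources used here, so counting CVs and floors cover counting error only; intervals of fold changes come from the fit and include the spread between libraries. All gene identifiers matched GENCODE M21 on the same chromosome.

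Genes kept by filterByExpr (minimum count 10), 10844 with 97.3% of counts, were TMM-scaled and tested with edgeR 4.0.16 (glmQLFit robust, glmQLFTest, Benjamini-Hochberg, threshold 0.05) in R 4.3.3, a procedure tested on simulated data. Log2 CPM used a prior count of 2, and each SE was derived from the F test. No libraries were duplicates (lowest chi-square per degree of freedom 2.4). Alternatives used DESeq2 1.42.0, limma 3.58.1 and other scalings, filters and subsets; plots used matplotlib 3.10.9. The members and lists were chosen with earlier results of these data known. Genes named were the members, the 2 of smallest p in each list and the 5 most alike in pattern; Zfas1, Snhg5 and Snhg17 were added after their values were seen.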

Additional observations from a re-analysis of the deposited data

Results flagged for a closer look

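Values of 30 sets of 5 libraries (a host gene or list sum in 1 group) were screened for a library far from the rest of its group, measured as its distance to the next value over the whole range. Chance picks out about 1 set in 20, or 1.5 of 30, and 1 was picked out. In ALDHdim 4, Snhg20 was at 9.26 CPM, while the 4 other libraries of that group lay between 6.04 and 6.80 CPM (0.763 of the range). The value rests on 11 counts.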

How the results depend on the processing

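None of the 6 host genes tested (Snhg18 was given no test) and no gene of the 6 lists passed the threshold under any of the 20 alternatives run for them. Over all genes the number past it was 0 in each case except 185 when no filter on low counts was used; the median log2 fold change of all genes was then 0.22, and DESeq2, also run on 33347 genes, gave a median of 0.28. Without both ALDHbr 3 and ALDHbr 5 the log2 fold change was −0.031 for Snhg1, 0.0325 for Snhg8 and 0.0014 for Snhg12, each opposite in sign to the main value, and it was −0.096 for Snhg1 with the depth covariate, which was chosen after seeing the data. The cause was not tested. Leaving out each library in turn gave −0.22 to 0.0331 for Snhg8, above 0 without ALDHbr 5. For Snhg12 it gave −0.20 to 0.0864, above 0 without ALDHbr 1 (0.0864), ALDHbr 5 (0.0792) or ALDHdim 4 (0.0599). Snhg1, Snhg6, Snhg11 and Gas5 kept their direction. Snhg18 was picked for its difference and its groups do not overlap, so its direction could not turn and nothing is read from it. Replicate numbers are shared between the groups, with no label saying what a number stands for. The deviations of same-numbered libraries correlated at 0.06 to 0.37, with a mean of 0.22 (5 of 5 above 0, 4 over 0.1). The 20 other pairs ran from −0.39 to 0.36, with a mean of −0.054 (6 above 0, 4 over 0.1). As deviations from group means sum to 0, the negative mean of the other pairs is not a separate contrast. Of 10 libraries 7 correlated best with their own number, a hint of shared structure from the data and not the design. With the replicate number as a block 0 genes passed and Gas5 differed by −0.39. Counts of 3 to 57 per library limit the precision for Snhg11, Snhg15 and Snhg20.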
